A study of Mus musculus with 8 samples.

Results

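The nuclear genes of oxidative phosphorylation encode most subunits of the respiratory chain, the set of protein complexes in the inner mitochondrial membrane that oxidise NADH and succinate and use the energy to make ATP. Members were chosen by symbol: protein-coding genes named as subunits of complex I (NDUFA, NDUFB, NDUFC, NDUFS and NDUFV), complex II (SDHA to SDHD), complex III (UQCR genes and CYC1), complex IV (COX5 to COX8 genes) and the ATP synthase, or complex V (ATP5 genes). The rule found 84 of the 58825 genes in the table, 37 in complex I, 4 in complex II, 10 in complex III, 14 in complex IV and 19 in complex V. It used no measured value. A further 55 entries with matching symbols, among the genes kept for analysis, were left out because they were not protein-coding, and all 55 were pseudogenes.

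The study compared wounds given PBS with wounds given rFGF4, recombinant fibroblast growth factor 4, in 8 RNA-seq libraries, 4 in each group. Per the labels, both groups were C57BL/6 mice aged 6 to 8 weeks, sampled at day 6 from skin within 2 mm of the wound, and no genetic change is given for either. The deposited table goes against that description: all 58825 of its identifiers were human Ensembl genes and 0 were mouse. PBS and rFGF4 below name the libraries by their labels, and no value is attributed to mouse wounds. The labels do not say whether libraries of a group came from separate animals or cultures, so p-values measure only the spread between these libraries, which may be technical.

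Complex I takes electrons from NADH, and complex II, which is also an enzyme of the citric acid cycle, takes them from succinate. Both pass them through ubiquinone to complex III, cytochrome c and complex IV, where oxygen is reduced to water. Complexes I, III and IV pump protons, and the ATP synthase uses the proton gradient to make ATP. Complex II is built wholly from nuclear genes, whereas the other complexes combine nuclear subunits with subunits encoded in mitochondrial DNA. In epidermis, basal keratinocytes carry an active respiratory chain, while cornified cells lose their mitochondria.

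The 8 libraries held 62044121 to 73680756 counts. All 10 basal keratinocyte markers looked for were at a mean of at least 1 FPKM (fragments scaled by gene length and library size, the authors' length-corrected unit). Their summed level was 2399 to 2723 FPKM in the PBS libraries and 2216 to 2324 FPKM in the rFGF4 libraries, so the groups did not overlap, and the part of this difference in the results below was not tested. At that level were 4 of 7 markers of differentiated keratinocytes, which summed to 28.4 to 31.4 FPKM in the PBS libraries and 27.3 to 29.2 FPKM in the rFGF4 libraries. So were 1 of 8 fibroblast, 1 of 6 endothelial, 0 of 7 macrophage, 0 of 7 skeletal muscle and 0 of 4 adipocyte markers, and 0 of the neutrophil, T cell, erythrocyte and melanocyte markers. The summed fibroblast markers reached 4.03 to 4.62 FPKM in the PBS libraries and 2.98 to 3.76 FPKM in the rFGF4 libraries. Mouse skin markers could not be looked for in a human table.

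Of the 84 members, 78 passed the filter on low values, a mean of at least 1 FPKM over all 8 libraries, and were tested. The 6 others are isoforms of restricted expression. COX6A2, the heart and muscle isoform of COX6A, COX7B2, COX8C and the ATP synthase copy ATP5MGL had 0 counts in every library. A floor of 12 counts, or about 3 fragments, corresponds to 0.163 to 0.193 CPM (counts scaled to library size, not to gene length) in these libraries. COX7A1, the muscle isoform of COX7A, had 0, 0, 0 and 8 counts in PBS replicates 1 to 4 and 5, 3, 0 and 11 counts in rFGF4 replicates 1 to 4, all under that floor. The subunit genes measured were thus those with the broad, non-muscle isoforms COX6A1, COX7A2 and COX8A.

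Levels per length differed widely within each complex. In complex I the range was from 2.87 FPKM for NDUFV3, an accessory subunit next to the NADH-oxidising site, to 271 FPKM for NDUFA1, a small accessory subunit of the membrane arm, a ratio of 94.4. Complex II went from 4.88 FPKM for SDHC to 49.6 FPKM for SDHB, and complex III from 5.10 FPKM for UQCRHL to 148 FPKM for CYC1, the cytochrome c1 gene. Complex IV went from 24.5 FPKM for COX7A2 to 383 FPKM for COX8A. The ATP synthase went from 12.6 FPKM for ATP5MPL to 385 FPKM for ATP5F1B, the catalytic beta subunit. Its partner in the catalytic head, the alpha subunit ATP5F1A, stood at 62.6 FPKM. On the CPM scale, which is not corrected for length, the same pair stood closer, at 885 CPM for ATP5F1A and 1089 CPM for ATP5F1B in the PBS libraries.

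**Figure D1:**
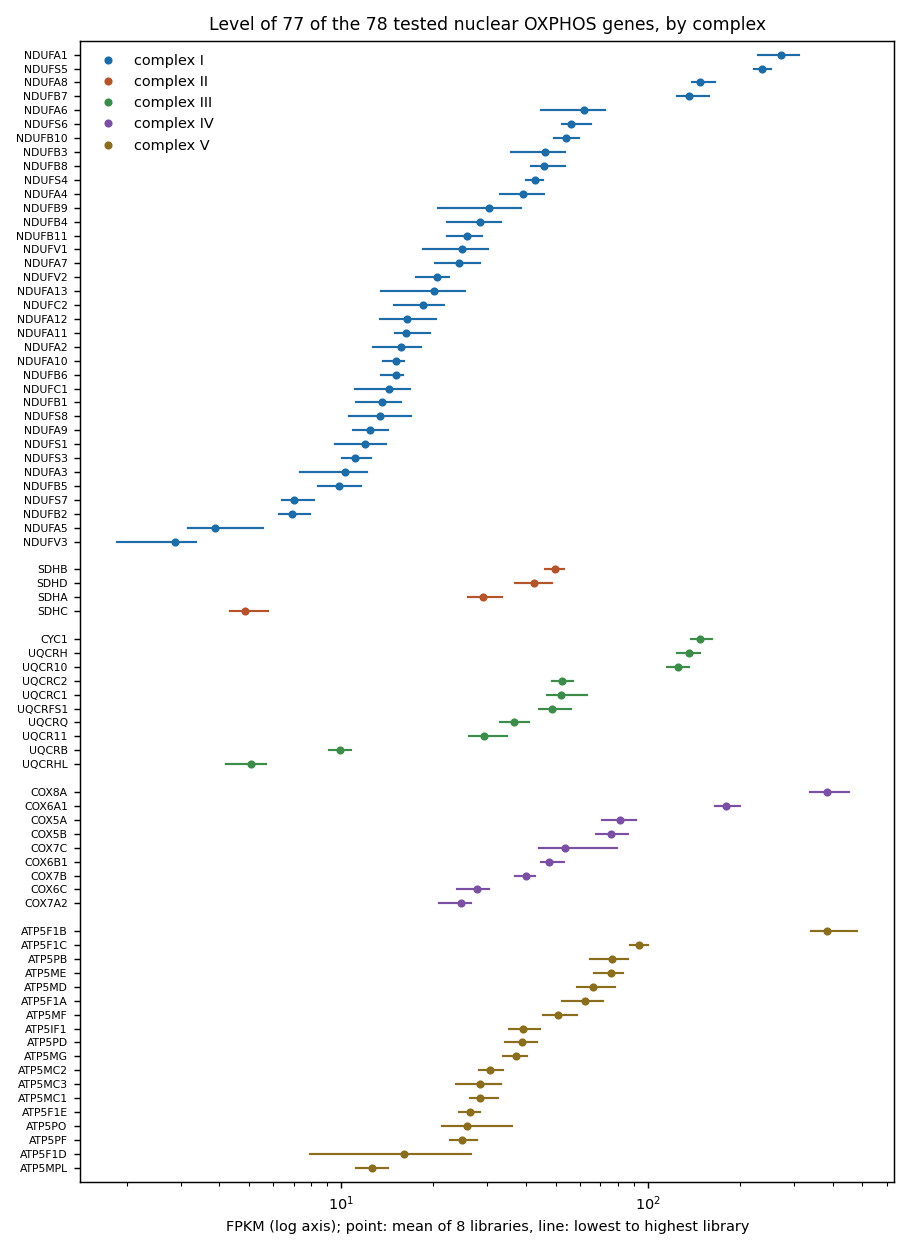
Level of 77 of the 78 tested members in FPKM on a log axis, grouped by complex. Points are means over 8 libraries and lines run from the lowest to the highest library. The spread between members of a complex, from 2.87 to 271 FPKM in complex I, is far wider than the line of most members.

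The authors' gene length behind FPKM bears on that order. By the ratio of count to FPKM, the length used for ATP5F1A was 4.73 times the median member's and that for ATP5F1B 0.97 times. For NDUFA1 and COX8A it was 0.18 and 0.21 times, and for SDHC 6.14 times. Of the 78 tested members, 32 fell in the shortest quintile of the 11536 tested genes and 26 in the next, with 8, 4 and 8 in the others.

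Of the 78 tested members, 1 was lower and 0 were higher in the libraries labelled rFGF4 (edgeR quasi-likelihood test, Benjamini-Hochberg adjusted over all tested genes, threshold 0.05). The member was SDHD, a membrane anchor of complex II. Over all tested genes 10.0% passed, 4.54% as lower and 5.49% as higher, so the members' 1 of 78, or 1.28%, lay below the background. At an unadjusted p under 0.05 there were 6 lower and 1 higher member, with 25.1% of all tested genes at that level, 11.6% lower and 13.5% higher. In 4 members, SDHA, SDHD, ATP5F1A and ATP5MC3, all rFGF4 libraries lay below all PBS libraries, and 0 members showed the reverse. Over all tested genes 19.3% did not overlap, 9.26% as lower and 10.1% as higher. The median log2 fold change was −0.04 over the members and 0.00 over all tested genes, and 51 of 78 members were below 0, against 49.7% of all tested genes.

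The median SE of the log2 fold change was 0.095 over the members and 0.111 over all tested genes. The median level was 30.5 FPKM over the tested members and 5.71 FPKM over all tested genes. Interval widths were counted for the members only. For 44 of the 78 the 95% interval of the fold change lay within 1.25-fold in either direction, for 74 within 1.5-fold and for 77 within 2-fold. The 4 members whose intervals crossed 1.5-fold were NDUFA13, NDUFB9, COX7C and ATP5F1D. Simulated counts for all 11536 tested genes, whatever their spread, had 200 genes changed. The test recovered 0% of genes changed 1.25-fold and 30% of those changed 1.5-fold. The data gave 1157 calls, so the adjustment was less strict there. These shares are thus no measure of recovery among the members.

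**Figure D2:**
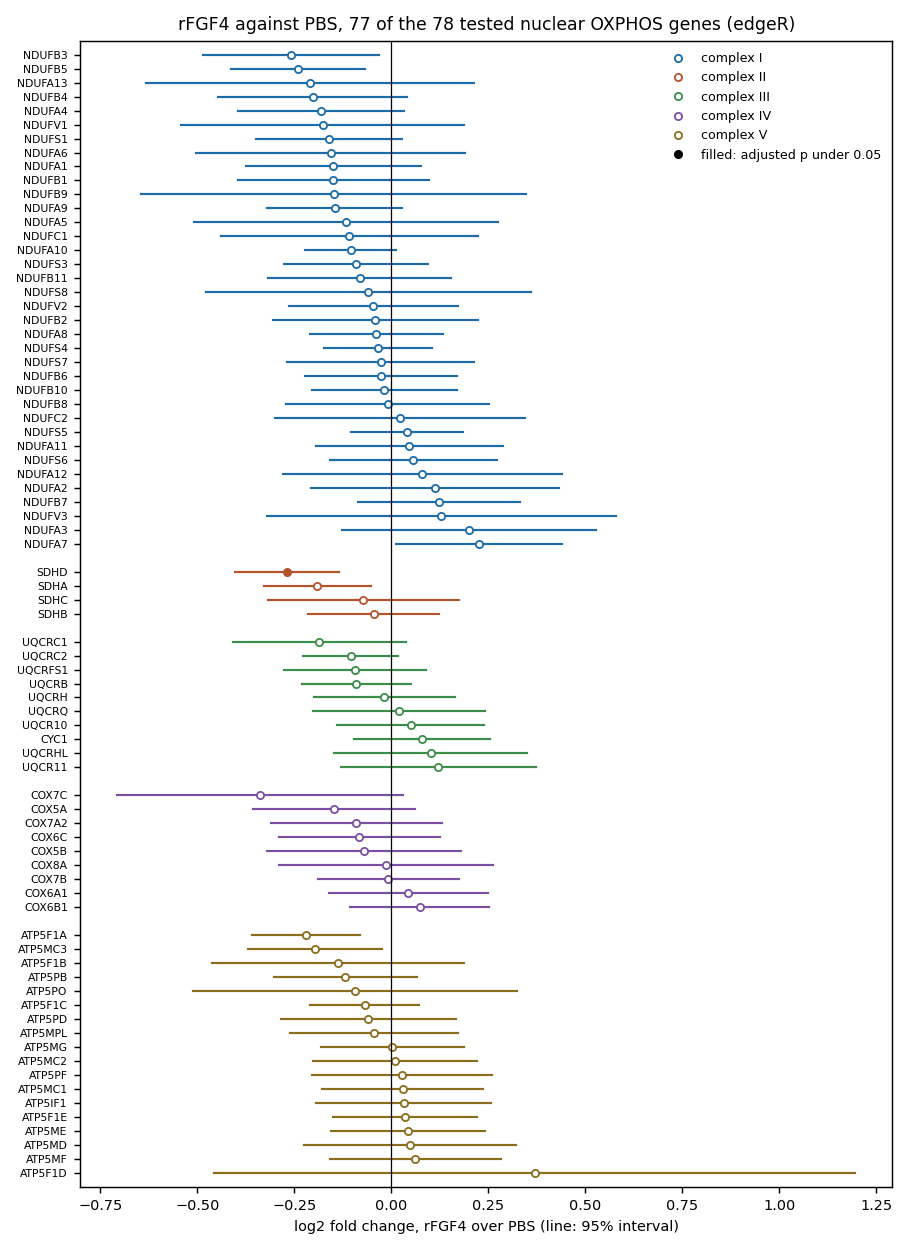
Log2 fold change of 77 of the 78 tested members, rFGF4 over PBS, with its 95% interval, grouped by complex. A filled point marks an adjusted p under 0.05. SDHD is the only filled point, and most intervals cross 0.

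Complex II was the complex whose 4 members all had negative estimates, with a median log2 fold change of −0.13. SDHA carries the flavin that oxidises succinate, SDHB carries the iron-sulfur clusters, and SDHC and SDHD anchor the enzyme in the membrane and bind ubiquinone. SDHD (chromosome 11, 112086824 to 112120013, plus strand, in the table's unnamed build) stood at 147, 159, 151 and 165 CPM in PBS replicates 1 to 4. It stood at 124, 130, 127 and 136 CPM in rFGF4 replicates 1 to 4. The groups did not overlap. The means were 156 ± 8.23 and 129 ± 5.06 CPM (SD, n = 4), a log2 fold change of −0.27 (SE 0.06, 95% interval −0.40 to −0.13, edgeR adjusted p = 0.0242), or 17.0% lower. In bulk samples, fewer cells of a type and less RNA per cell cannot be told apart.

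The log2 fold change of SDHD was negative in all settings run, at −0.24 to −0.30 with a library left out, while its call depended on the libraries used. In 4 of the 8 fits with a library left out it was lost, with an edgeR adjusted p of 0.0616 to 0.0794: those lacking replicate 2 or replicate 4 of PBS, and those lacking replicate 1 or replicate 3 of rFGF4. It also missed the threshold with no filter on low values (adjusted p = 0.0664) and passed under 14 of the 19 other settings.

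SDHA stood at 313, 330, 311 and 355 CPM in the PBS group and at 302, 274, 285 and 287 CPM in the rFGF4 group. All 4 rFGF4 values lay below all 4 PBS values. The log2 fold change was −0.19 (SE 0.06) and did not pass with edgeR (adjusted p = 0.0890), while 3 of the 19 other settings called it. SDHA has 3 pseudogenes named after it in the table, whose counts came to 10.2% of its own, and it overlaps the tested gene AC021087 on the same strand. Its counts are therefore uncertain. SDHD also has 3 named pseudogenes, whose counts came to 1.42% of those of SDHD. SDHB (−0.05, SE 0.07) and SDHC (−0.07, SE 0.11) did not pass, and their groups overlapped.

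**Figure D3:**
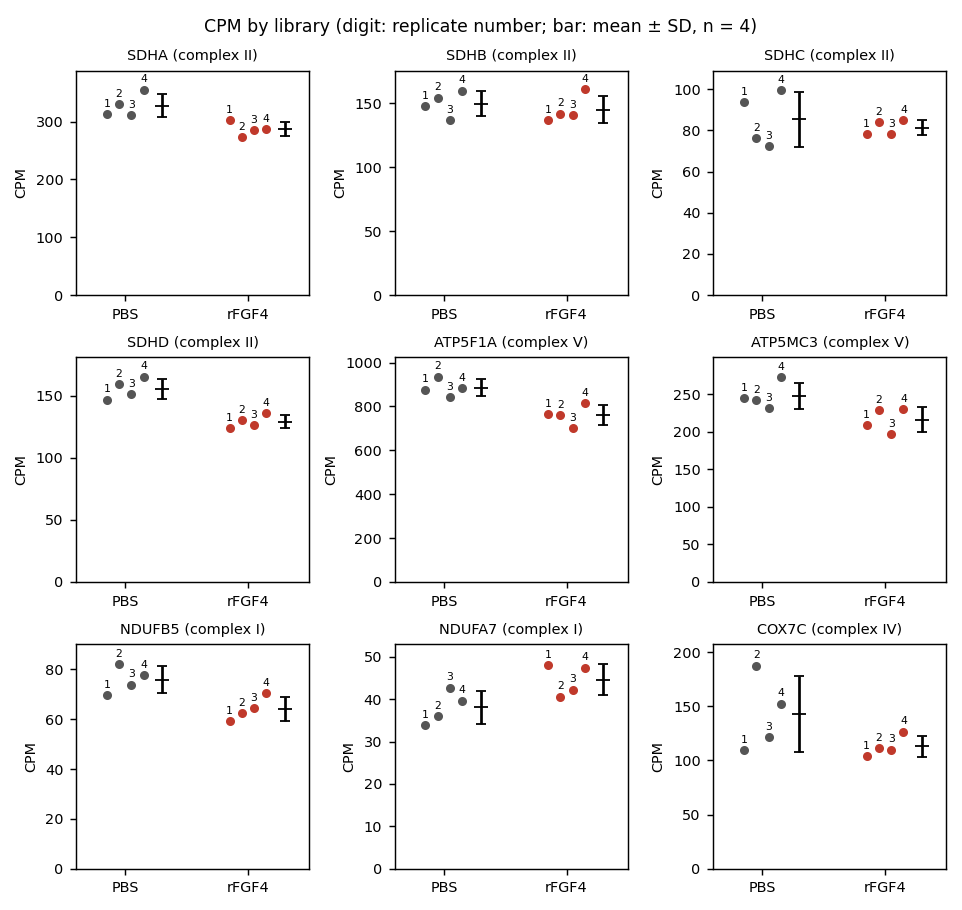
CPM in each library for the complex II genes and 5 members of other complexes, with digits for replicate numbers and bars for the mean ± SD (n = 4). The axes start at 0. The groups do not overlap for SDHA, SDHD, ATP5F1A and ATP5MC3, and overlap for the others.

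In complex I, 0 of 37 members passed, and the median log2 fold change was −0.05. The 7 nuclear core subunits, which carry the flavin, the iron-sulfur clusters and the ubiquinone site, all had negative estimates. The most negative was NDUFV1, the NADH-binding subunit, at −0.18 (SE 0.16). Of the 29 accessory subunits, 19 had negative estimates. By position, 11 of 16 members of the matrix arm and 15 of 20 of the membrane arm were negative, with medians of −0.04 and −0.06. These counts do not hold NDUFA4, which is named for complex I but was later assigned to complex IV, and which had −0.18 (SE 0.09, adjusted p = 0.275).

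The lowest p-values in complex I belonged to 2 accessory subunits of the membrane arm. NDUFB5 stood at 69.5, 82.2, 73.8 and 77.6 CPM in the PBS group and at 59.2, 62.5, 64.5 and 70.5 CPM in the rFGF4 group. Only rFGF4 replicate 4 exceeded the lowest PBS library. Its log2 fold change was −0.24 (SE 0.08, adjusted p = 0.0861), and it passed under 5 of the 19 other settings, among them the fit without rFGF4 replicate 4 (adjusted p = 0.0406). NDUFB3 had −0.26 (SE 0.10, adjusted p = 0.148).

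In the other direction, NDUFA7, an accessory subunit of the matrix arm, stood at 34.0, 36.0, 42.7 and 39.7 CPM in the PBS group and at 48.0, 40.6, 42.3 and 47.5 CPM in the rFGF4 group. The groups overlapped, and the log2 fold change of 0.23 (SE 0.09) did not pass (adjusted p = 0.174). NDUFA7 overlaps the ribosomal protein gene RPS28 on the other strand. NDUFA3 had 0.20 (SE 0.14, adjusted p = 0.441). At the ends of the level range, NDUFA1 had −0.15 (SE 0.10) and NDUFV3 had 0.13 (SE 0.20).

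In complex III, 0 of 10 members passed, and 5 were above and 5 below 0, with a median log2 fold change of 0.00. The core proteins UQCRC1 (−0.19, SE 0.10) and UQCRC2 (−0.10, SE 0.05) were the most negative. UQCRC1 stood at 186 to 246 CPM in the PBS group and at 179 to 201 CPM in the rFGF4 group, which overlapped. The iron-sulfur subunit UQCRFS1 had −0.09 (SE 0.08), and CYC1 had 0.08 (SE 0.08). The small subunit UQCR11 had 0.12 (SE 0.11), the largest positive estimate of the complex. UQCRHL, a near-copy of the hinge protein gene UQCRH, had 4.72% to 6.80% of the counts of UQCRH, and reads of the pair cannot be told apart with confidence.

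In complex IV, 0 of 9 tested members passed, and 7 were negative, with a median of −0.07. COX7C had the most negative estimate of all members, −0.34 (SE 0.16, adjusted p = 0.237). It stood at 110, 188, 122 and 152 CPM in the PBS group and at 104, 111, 110 and 127 CPM in the rFGF4 group. The PBS libraries spread widely, and PBS replicate 2 was the highest of the 8. Without it the log2 fold change was −0.18, the weakest of the 8 fits with a library left out. COX5A, on the matrix face, had −0.15 (SE 0.09, adjusted p = 0.371). COX6B1 (0.07, SE 0.08) and COX6A1 (0.04, SE 0.09) were the only 2 tested members of the complex above 0. COX8A, the most abundant per length, had −0.01 (SE 0.12).

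COX6B2, the testis-type isoform of COX6B, lay below the filter, with a mean of 0.101 FPKM. It had 72, 33, 46 and 45 counts in PBS replicates 1 to 4 and 8, 10, 12 and 23 counts in rFGF4 replicates 1 to 4. The groups did not overlap, but 3 of the 4 rFGF4 libraries were at or under the floor of 12 counts. It passed in each of the 3 other settings that let it in. With a filter at a mean of 0.1 FPKM the log2 fold change was −1.93 (SE 0.40, edgeR adjusted p = 0.0251). COX6B2 cleared that filter only through the PBS group, at a mean of 0.162 FPKM against 0.0403 FPKM in the rFGF4 group. That call is therefore no separate support for a difference. The size of that difference is uncertain at this depth.

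In the ATP synthase, 0 of 18 tested members passed, and 10 were above 0, with a median of 0.01. The alpha subunit gene ATP5F1A (chromosome 18, 46080248 to 46104233, minus strand) stood at 877, 936, 843 and 885 CPM in the PBS group. It stood at 765, 759, 701 and 816 CPM in the rFGF4 group, all below the PBS libraries. Its log2 fold change of −0.22 (SE 0.06) missed the threshold (adjusted p = 0.0573), and 4 of the 19 other settings called it. ATP5F1B, the catalytic beta subunit, had −0.14 (SE 0.14), with 2 PBS libraries at 903 CPM and the others at 1253 and 1297 CPM. The small central stalk subunit ATP5F1D had the largest positive estimate of all members, 0.37 (SE 0.36). It had the widest 95% interval of the members, with values from 21.2 to 47.2 CPM in the PBS group and from 23.9 to 73.3 CPM in the rFGF4 group.

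The ring of c subunits, which turns as protons pass, is encoded by 3 genes whose products differ in the targeting sequence but yield the same mature protein. ATP5MC3 stood at 245, 242, 232 and 273 CPM in the PBS group and at 209, 229, 197 and 231 CPM in the rFGF4 group. The groups did not overlap, by less than 1 CPM, and the log2 fold change of −0.20 (SE 0.08) did not pass (adjusted p = 0.146). ATP5MC1 (0.03, SE 0.09) and ATP5MC2 (0.01, SE 0.09) differed by less than their errors, and the sign of each changed under other settings. Of the summed FPKM of the 3 genes, ATP5MC3 made up 34.1% ± 0.673 in the PBS libraries and 30.9% ± 2.73 in the rFGF4 libraries (SD, n = 4). ATP5IF1, an inhibitor of the enzyme and no structural subunit, had 0.03 (SE 0.10). ATP5MF had 0.06 (SE 0.10) and ATP5MPL, the least abundant per length, −0.04 (SE 0.09).

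Most members varied together from library to library. The mean pairwise Pearson correlation of log2 CPM over the 8 libraries was 0.459 among the 78 members, and 0.516 after group means were removed. Among all tested genes it was 0.00, a value that the scaling between libraries holds near 0, so it is no background for the members. It was 0.367 among mitochondrial ribosomal protein genes and 0.821 among the mitochondrially encoded subunits. Among citric acid cycle and pyruvate dehydrogenase genes it was 0.0768. Of the 78 members, 61 had their highest CPM in a library numbered 4, 38 of them in rFGF4 replicate 4 and 23 in PBS replicate 4. The median deviation of the members from their own mean was 0.16 (log2) in rFGF4 replicate 4, 0.13 in PBS replicate 4 and 0.07 in PBS replicate 2. In the other 5 libraries it was −0.05 to −0.09. These shifts between libraries of a group were larger than the members' median log2 fold change of −0.04.

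Complex by complex the pattern was much the same. The mean standardized level (log2 CPM less its mean over the libraries, in SD units) of complexes I, III, IV and V was 0.84 to 1.34 in rFGF4 replicate 4 and 0.78 to 0.98 in PBS replicate 4. Complex II was highest in PBS replicate 4, at 1.53, and stood at 0.11 in rFGF4 replicate 4. Of the members, NDUFB2 (r = 0.987), COX5B (0.971) and NDUFB10 (0.961) followed the members' mean most closely, and 65 of 78 had r of at least 0.5 with it. NDUFA6 (−0.35), UQCRHL (−0.10), NDUFS1 (−0.09) and NDUFA5 (−0.07) had negative r. These correlations are descriptions over 8 libraries that share depth and scaling, and each member is part of the mean.

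Gene length moved with the libraries numbered 4. The shortest quintile of the tested genes, members left out, had a mean standardized level of 0.63 in rFGF4 replicate 4 and 0.15 in PBS replicate 4. The longest quintile stood at −0.76 and −0.27 there. The mean pairwise correlation was 0.0819 among those shortest genes and 0.133 among the longest. Cytosolic ribosomal protein genes stood at 1.31 and 0.75 in the 2 libraries, with a mean pairwise correlation of 0.467, close to the members' own. In PBS replicate 2 the shortest genes, members left out, stood at −0.095 and the members at 0.50. In rFGF4 replicate 3 those genes stood at 0.03 and the members at −0.47. Both were negative in PBS replicates 1 and 3 and in rFGF4 replicates 1 and 2. There, in that order, the shortest genes stood at −0.19, −0.26, −0.08 and −0.18 and the members at −0.43, −0.35, −0.60 and −0.56. The longest quintile stood at 0.28, 0.17, 0.20 and 0.38 in the same libraries. The part of length in the members' pattern was not tested.

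**Figure D4:**
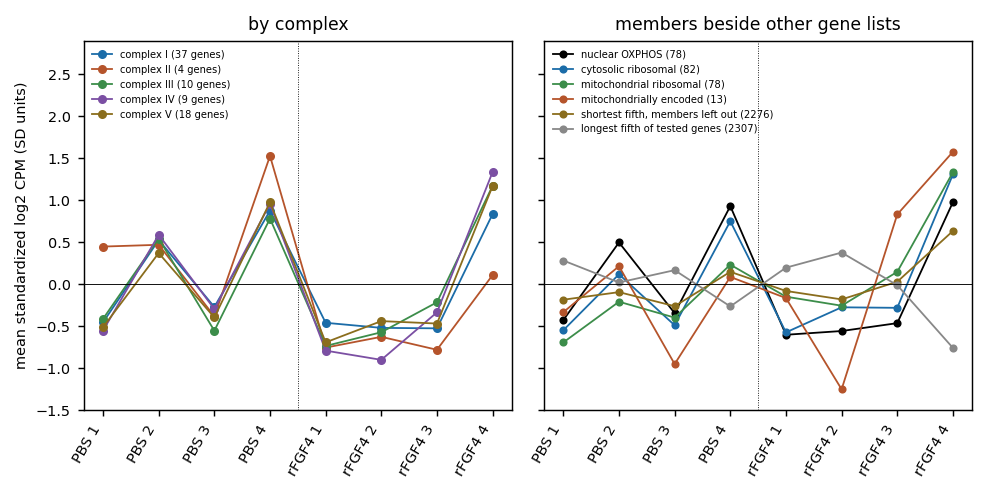
Mean standardized log2 CPM (SD units) in each library, by complex at left and for the members beside other gene lists at right, with gene numbers in brackets. Lines join libraries to guide the eye and the dotted line parts the groups. Complexes I, III, IV and V peak in PBS replicate 4 and rFGF4 replicate 4, while the longest quintile of genes is lowest there.

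The members' median and count of calls moved with the library left out. Without rFGF4 replicate 4 the members' median log2 fold change was −0.10, with 66 of 78 members below 0, and 3 were called as lower, SDHD, ATP5F1A and NDUFB5. Without PBS replicate 4 the median was 0.01, with 38 of 78 below 0, and 0 were called. Without PBS replicate 2, rFGF4 replicate 1 or rFGF4 replicate 3, 0 were called too, with medians of −0.04, −0.02 and −0.02. Of all tested genes, 10.1% were called without rFGF4 replicate 4, against 3.85% of members. The share of all genes was 6.94% without PBS replicate 4 and 5.16% without PBS replicate 2. It was 6.13% without rFGF4 replicate 1 and 5.82% without rFGF4 replicate 3. Without both libraries numbered 4, a fit added after seeing the data, the median was −0.07 and SDHD alone was called (adjusted p = 0.0334). That was 1.28% of members, against 8.07% of all tested genes.

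Among the genes outside the members whose log2 CPM over the 8 libraries was most like the members' mean were AP2S1 (Pearson r = 0.991), MAGEF1 (0.981), SRP14 (0.980) and SLC25A10 (0.979). AP2S1 encodes a small subunit of a clathrin adaptor, SRP14 a small protein of the signal recognition particle, and SLC25A10 a mitochondrial dicarboxylate carrier.

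Of 6 further genes linked to the respiratory chain that the naming rule leaves out, not all of them subunits, 4 were tested and 0 passed. Their median log2 fold change was 0.01. COX4I1, the ubiquitous form of the regulatory subunit COX4, had −0.03 (SE 0.08), and NDUFAB1 had 0.05 (SE 0.12). CYCS, cytochrome c, had 0.21 (SE 0.10, adjusted p = 0.250) and COX7A2L had −0.33 (SE 0.20, adjusted p = 0.358). COX4I2, the lung isoform, had 0 counts, and NDUFA4L2 was below the filter at 0.620 FPKM.

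The 13 subunits encoded in mitochondrial DNA had estimates on the other side of 0. They made up 26.2% to 32.3% of all FPKM, while the 84 nuclear members made up 1.28% to 1.52%. Of the 13, 12 were positive, from 0.08 to 0.24, MT-ND4L was −0.07, and 0 passed (median log2 fold change 0.12). The smallest p was that of MT-ND2 (0.22, SE 0.14, adjusted p = 0.408), at 6304 to 7348 CPM in the PBS group and 6325 to 10239 CPM in the rFGF4 group. These transcripts also varied by library, with a mean standardized level of 1.58 in rFGF4 replicate 4 and −1.25 in rFGF4 replicate 2.

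Among genes that control the nuclear subunits and mitochondrial DNA, 3 of 18 tested rose and 0 fell, against 5.49% of all tested genes higher, and the median was 0.16. PPRC1, a coactivator of the PGC-1 family, stood at 75.1, 67.6, 85.2 and 71.6 CPM in the PBS group and at 126, 112, 119 and 107 CPM in the rFGF4 group, which did not overlap. Its log2 fold change was 0.63 (SE 0.09, adjusted p = 0.00339). TFB1M, which modifies the small ribosomal RNA of mitochondria, had 0.60 (SE 0.09, adjusted p = 0.00463), with 18.7 to 23.3 CPM in the PBS group and 29.5 to 34.1 CPM in the rFGF4 group. Both passed under all 19 other settings. TFAM, which packs mitochondrial DNA and starts its transcription, rose by 0.25 (SE 0.06, adjusted p = 0.0314). That call held without rFGF4 replicate 4 and was lost without any other single library (adjusted p = 0.0619 to 0.104).

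The DNA-binding activators of OXPHOS genes did not pass. NRF1 had 0.19 (SE 0.12) and GABPA −0.14 (SE 0.11). ESRRA had 0.41 (SE 0.20, adjusted p = 0.251), with PBS replicate 2 at 51.8 CPM, the other PBS libraries at 96.0 to 109 CPM and the rFGF4 libraries at 116 to 126 CPM, so the groups did not overlap. PPARGC1A, the coactivator PGC-1 alpha, had 0 to 8 counts per library, under the floor.

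Assembly factors, which build the complexes without being part of them, had 3 calls among 55 tested, all higher, which at 5.45% is near the 5.49% of all tested genes. COA7, a complex IV assembly factor, stood at 55.4, 51.0, 52.9 and 52.3 CPM in the PBS group and at 75.9, 78.2, 71.1 and 64.4 CPM in the rFGF4 group. It rose by 0.45 (SE 0.07, adjusted p = 0.00623), and the call was lost in 1 of 19 other settings, limma on TPM (adjusted p = 0.101). SCO1, which delivers copper to complex IV, rose by 0.70 (SE 0.18, adjusted p = 0.0454). PBS replicate 1 stood at 72.7 CPM, near the rFGF4 libraries at 76.1 to 86.5 CPM, and the other PBS libraries at 39.8 to 45.4 CPM. The call held without that library and was lost without any other (adjusted p = 0.0829 to 0.127). NDUFAF2, a complex I assembly factor, rose by 0.29 (SE 0.08, adjusted p = 0.0460), a call that held only without rFGF4 replicate 2 among the 8 fits with a library left out and was otherwise lost (adjusted p = 0.0682 to 0.116). By list, the counts were 1 of 17 for complex I, 0 of 10 for complexes II and III, 2 of 22 for complex IV and 0 of 6 for the ATP synthase, with medians of 0.03, 0.03, 0.08 and −0.03. In the lists without a call, the smallest p belonged to UQCC2 (0.20, SE 0.10, adjusted p = 0.266) and DMAC2L (0.31, SE 0.11, adjusted p = 0.122).

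The citric acid cycle and pyruvate dehydrogenase list had 0 of 18 called and a median of −0.06, with 12 negative. The carriers and channels for ATP and phosphate had 0 of 7 called and a median of −0.13, with the outer membrane channel VDAC3 at −0.25 (SE 0.07, adjusted p = 0.0656). The pyruvate fate list had 0 of 9 called, with the kinase PDK1 at 0.36 (SE 0.11, adjusted p = 0.0891). Ribosomal protein genes are given for comparison. Of 78 mitochondrial ribosomal protein genes 4 rose and 0 fell (median 0.12, 61 positive), which at 5.13% is near the 5.49% of all tested genes called higher, and of 82 cytosolic ones 0 were called (median 0.03). The 4 were MRPL32 (0.25), MRPL36 (0.42), MRPS17 (0.35) and MRPS34 (0.59). MRPL32 (adjusted p = 0.0605) and MRPL36 (adjusted p = 0.0527) lost the call without PBS replicate 2. MRPS17 kept it only without PBS replicate 4 or rFGF4 replicate 4 and MRPS34 only without rFGF4 replicate 3, with adjusted p up to 0.107 and 0.0990 otherwise. The smallest p of the cytosolic genes was that of RPL39 (−0.26, SE 0.11, adjusted p = 0.199). Differences between lists were not tested.

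**Figure D5:**
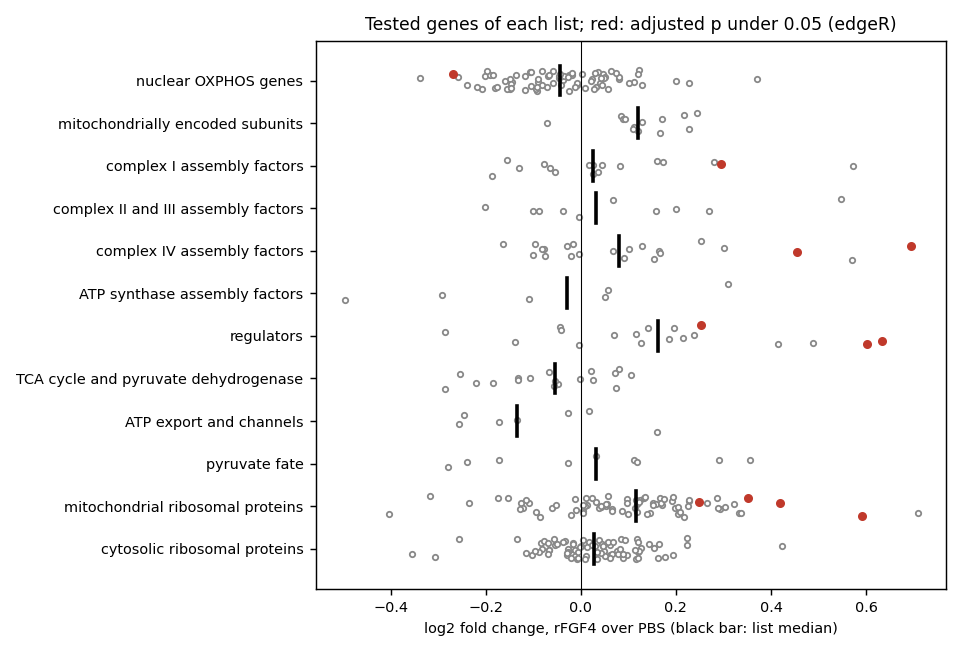
Log2 fold change, rFGF4 over PBS, of each tested gene of the lists, with list medians as black bars and genes at an adjusted p under 0.05 in red. The nuclear OXPHOS genes have 1 red point, SDHD, below 0. The red points of the assembly factor, regulator and mitochondrial ribosomal lists all lie above 0.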

How the data were processed

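Values for 8 libraries, 4 labelled PBS and 4 labelled rFGF4, came from a table with 2 columns per library, matched to samples by column name and replicate number. Per the file headers the authors deposited FPKM, in which 0.0001 stands for 0 and was read as such. They also deposited counts, per the file headers, as whole numbers that behave like estimates from coverage: 9781 entries were at 4, against 3485 at 3 and 1977 at 5, so 1 fragment was taken as about 4 counts. The submitters' processing notes name HISAT2 2.0 and StringTie 1.3.0. Genome build, annotation and use of strand: not given in the sources used here. Only mouse reference sequences were at hand, so no sequence is printed and no promoter was searched.

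The counts were tested with edgeR 4.0.16 (R 4.3.3), TMM scaling and the quasi-likelihood test, two-sided, on the 11536 genes with a mean of at least 1 FPKM. Each SE is the fold change divided by the square root of its F statistic. CPM uses the TMM factors and totals of the tested genes, and the floor the totals of all genes. XIST, TSIX and Y-linked genes, 521 in all, were excluded. On simulated counts with 200 genes changed, the method recovered 66% of 2-fold and 100% of 4-fold changes, with 2 false calls. Genes were simulated independently, without the shared shifts between libraries seen here, so these rates need not hold for the measured counts. Alternatives were run with DESeq2 1.42.0 and limma 3.58.1. Of the members, 18 of 78 tested overlap another tested gene. Pseudogenes named after members held 0.506% of the members' counts.

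The members and lists were chosen with earlier results of these data known. Named were members past the threshold, the 2 smallest p in each direction per complex, the highest and lowest level per complex, all complex II, c-ring, NDUFA4, ATP5IF1 and untested members, up to 4 called genes or else the smallest p per other list, PPARGC1A, NRF1, GABPA, ESRRA, TFAM and COX4I1, and the 5 genes most like the members' mean. NDUFB2, COX5B, NDUFB10, NDUFA6, NDUFS1, NDUFV1, NDUFA5, NDUFAB1, COX7A2L, UQCRFS1, MT-ND4L, NDUFA13 and NDUFB9 were named after their values were seen. Some results that the rule would name, and 1 member in the plots of levels and fold changes, are not reported here.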

Additional observations from a re-analysis of the deposited data

Results flagged for a closer look

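In groups of 4 libraries, 10 of 116 groups of values held a library far from the others. Chance gives about 1 in 20 for independent groups. These groups share the same libraries and many vary together, so their number cannot be set against that rate. The mean standardized level of complex I in rFGF4 replicate 4 was 0.84, and the other rFGF4 libraries lay at −0.53 to −0.46. That of complex V in the same library was 1.17, the others lying at −0.69 to −0.44. Also in rFGF4 replicate 4, COX4I1 stood at 377 CPM against 309 to 320 CPM in the others and MRPL36 at 71.6 CPM against 57.6 to 59.8 CPM. In that library TFAM was low, at 70.9 CPM against 80.1 to 81.3 CPM, and so was GABPA, at 20.7 CPM against 25.3 to 25.8 CPM. In PBS replicate 1, UQCRC2 stood at 321 CPM against 345 to 349 CPM, COX7A2 at 52.7 CPM against 60.2 to 61.3 CPM, and SCO1 at 72.7 CPM against 39.8 to 45.4 CPM. In rFGF4 replicate 2, NDUFAF2 was low, at 34.7 CPM, the other rFGF4 libraries lying at 38.0 to 38.5 CPM.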

How the results depend on the processing

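Counts of called members were small throughout. Against 1 in the edgeR fit, 4 passed with DESeq2, 4 with limma on log2(FPKM + 1) and 4 with a pseudocount of 0.1. With limma on TPM 3 passed, 2 with a filter at a mean of 0.1 FPKM, 2 with filterByExpr and 0 to 3 with a library left out. Each set of 4 was 5.13% of members. Of all tested genes 15.8% were called with DESeq2, 10.0% with limma on log2(FPKM + 1) and 9.94% with that pseudocount. The 3 calls on TPM were 3.85% of members, against 6.5% of all tested genes. The sets of 2 were 2.53% of members, against 6.5% with that filter and 6.41% with filterByExpr. Member shares thus lay below those of all tested genes in these settings. With no filter the 1 member called was COX6B2 in place of SDHD. That was 1.25% of members, against 2.9% of all tested genes. Over all genes, 1157 were called, against 1828 with DESeq2, 750 with limma on TPM and 595 (without PBS replicate 2) to 1164 (without rFGF4 replicate 4) with a library left out. Of these calls 633 were higher and 524 lower in the edgeR fit and 324 and 426 with limma on TPM, where 65 of 78 members were below 0. The medians of the members and of each complex moved by less than the spread between libraries of a group in all settings run. That spread is larger than the members' median, and leaving out 1 of 4 libraries moves a group mean by only part of it. The comparison therefore cannot show that the medians held, and some changed sign or size. With a library left out, the median ran from −0.10 to 0.01 for the members, −0.11 to −0.01 for complex I, −0.18 to −0.08 for complex II, −0.078 to 0.038 for complex III, −0.16 to −0.01 for complex IV and −0.067 to 0.054 for complex V. Those of complexes III and V were also negative with upper-quartile scaling, limma and both libraries numbered 4 left out, and that of complex III with DESeq2, median-of-ratios scaling and the replicate block. Deviations of same-numbered libraries correlated at 0.124, 0.061, −0.021 and 0.266 for numbers 1 to 4, over 0.1 for numbers 1 and 4 but not for 2 and 3, so the numbers were not taken to pair the samples. With the replicate number as a block 1013 genes and 1 member, SDHD (−0.27, adjusted p = 0.0259), were called, and the calls for NDUFAF2, SCO1, TFAM and MRPS34 were lost. Of 1007 single-gene values, the call was lost in 67 and gained in 16. Losses were most frequent for NDUFAF2 (14 of 19 settings), MRPS34 (13), SCO1 (12) and TFAM (12). A further 32 values changed sign, none of them for a called gene. With limma on log2(FPKM + 1), log2(FPKM + 0.1) and TPM, ATP5MC1 had −0.0027, −0.0029 and −0.027, ATP5MC2 −0.020, −0.020 and −0.044, and ATP5IF1 −0.00011, −0.00019 and −0.025. COX6A1 had −0.0082 on TPM and ATP5MC2 −0.0023 with upper-quartile scaling. Without both libraries numbered 4, ATP5MC1, ATP5MC2, ATP5IF1 and UQCRHL had −0.037, −0.026, −0.021 and −0.0015. With a library left out, the ranges were −0.067 to 0.080 for ATP5MC1, −0.067 to 0.061 for ATP5MC2, −0.061 to 0.095 for ATP5IF1, −0.14 to 0.0098 for SDHC, −0.023 to 0.24 for NDUFV3, −0.027 to 0.10 for COX6A1, −0.14 to 0.053 for COX8A, −0.028 to 0.12 for ATP5MF, −0.11 to 0.017 for ATP5MPL and −0.10 to 0.023 for COX4I1. The cause was not tested.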
